A study of Mus musculus with 15 samples.

Results

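H3K27ac peaks at CpG-poor promoters were examined in a mouse model of fusion-positive rhabdomyosarcoma, a muscle-like cancer in which PAX3 and FOXO1 are joined into 1 transcription factor (P3F). A peak of the deposited list was included when it overlapped the 2 kb on either side of a RefSeq start site of a protein-coding gene and when the start site nearest its summit had a CpG observed/expected ratio below 0.35 within 500 bp. The ratio compares the number of CpG dinucleotides with the number expected from the C and G content. Of the 122375 peaks in the list, 24898 lay in a promoter window, and 2664 of these (10.7%, 95% Wilson interval 10.3 to 11.1) were at a CpG-poor start site. They belonged to 1050 start sites of 944 genes, among 8881 CpG-poor start sites of 7900 genes.

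The series held 15 CUT&RUN libraries from tumors of 2 models, namely 6 MCP and 3 TCP libraries of H3K27ac, with 3 IgG libraries for each model. CUT&RUN cuts out and sequences the DNA fragments beside an antibody. All tumors carried homozygous floxed Cdkn2a, homozygous P3F at the Pax3 locus and the R26-tdTom reporter, with Cre from Myf6 in MCP and from Tek in TCP. Only the peaks of MCP H3K27ac replicate 5 were used. Myf6-Cre acts in myogenic cells and Tek-Cre in endothelial and hematopoietic cells, and the study sorted live tumor cells before the assay. The ages of the mice are not given in the labels. One list has no replicates, so the values below describe 1 library, intervals cover counting error only, and no test between conditions was made.

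Acetylation of lysine 27 of histone H3 marks the nucleosomes of active promoters and enhancers. Most promoters of genes used in every cell lie in CpG islands, which are often open and acetylated, whereas promoters that lack CpG dinucleotides mostly belong to genes used in 1 tissue or after a stimulus. Such promoters depend on transcription factors that bind their own short motifs. Examples are the genes of the contractile apparatus, which are switched on when muscle cells mature, and the genes induced by interferon through the STAT and IRF factors.

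Of the gene lists examined, the interferon response had the highest share of genes with a peak, and some of its upstream sequences follow. The 150 bp before the start site are given for the 6 interferon response genes with the highest fold enrichment that hold the interferon-stimulated element (GAAANNGAA on either strand) in that stretch. These 6 were chosen after their values were seen and because they hold the element, so they do not represent the list. From 250 bp before to 50 bp after the start site, the element was in 28 of the list's 41 start sites with a peak. It was also in 9 of 19 without one. Sequences run 5′ to 3′ on the gene strand of RefSeq GRCm38, the build called mm10 in the peak list, and capitals mark the element.
Tgtp1: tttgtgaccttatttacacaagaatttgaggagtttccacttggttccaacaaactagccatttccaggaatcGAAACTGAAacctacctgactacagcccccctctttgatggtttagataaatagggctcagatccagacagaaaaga
Rtp4: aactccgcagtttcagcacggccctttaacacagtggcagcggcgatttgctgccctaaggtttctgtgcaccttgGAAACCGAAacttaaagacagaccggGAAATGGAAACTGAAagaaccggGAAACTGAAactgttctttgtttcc
Igtp: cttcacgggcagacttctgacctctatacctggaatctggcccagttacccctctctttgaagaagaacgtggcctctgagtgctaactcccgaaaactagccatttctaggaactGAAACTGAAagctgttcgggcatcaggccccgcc
Ifit3b: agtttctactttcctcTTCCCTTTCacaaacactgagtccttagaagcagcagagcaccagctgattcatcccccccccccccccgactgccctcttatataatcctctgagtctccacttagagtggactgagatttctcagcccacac
Irgm2: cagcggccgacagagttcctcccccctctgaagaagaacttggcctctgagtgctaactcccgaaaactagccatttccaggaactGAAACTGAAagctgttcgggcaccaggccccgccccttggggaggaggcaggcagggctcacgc
Gbp2: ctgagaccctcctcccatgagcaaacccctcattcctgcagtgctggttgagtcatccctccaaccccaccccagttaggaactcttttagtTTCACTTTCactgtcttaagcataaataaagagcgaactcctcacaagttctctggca
The Rtp4 stretch (chr16:23609769-23609918) held 4 matches, which partly overlap, and the others held 1 match each. The matches of Igtp (chr11:58199406-58199555) and Irgm2 (chr11:58214827-58214976) lie in a run of 29 bases that the 2 upstream stretches share without a mismatch, and a further shared run of 38 bases lies before it. Tgtp1 (chr11:48992247-48992396), which encodes another GTPase of this family, shared a run of 20 bases with Irgm2 outside the element. The matches in Gbp2 (chr3:142620513-142620662) and Ifit3b (chr19:34607807-34607956) were on the opposite strand.

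For comparison, the upstream stretches of 2 muscle genes with a peak and 2 without one are shown next, with capitals at the MYOD1 E-box with the GC core (CAGCTG) and at the CArG box, the site of the serum response factor SRF. Tnnt3 and Trim54 were among the 4 muscle genes with the highest fold enrichment.
Tnnt3: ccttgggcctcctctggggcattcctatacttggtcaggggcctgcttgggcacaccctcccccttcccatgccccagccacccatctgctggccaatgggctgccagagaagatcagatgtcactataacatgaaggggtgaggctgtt
Trim54: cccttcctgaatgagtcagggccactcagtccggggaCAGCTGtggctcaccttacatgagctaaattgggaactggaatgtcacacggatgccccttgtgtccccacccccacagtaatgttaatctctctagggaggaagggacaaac
Acta1 and Actc1, the skeletal and cardiac alpha-actins, come first in the alphabet among the muscle genes without a peak.
Acta1: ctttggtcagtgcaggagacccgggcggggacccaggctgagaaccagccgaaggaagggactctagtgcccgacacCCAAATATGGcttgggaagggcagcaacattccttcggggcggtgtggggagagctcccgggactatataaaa
Actc1: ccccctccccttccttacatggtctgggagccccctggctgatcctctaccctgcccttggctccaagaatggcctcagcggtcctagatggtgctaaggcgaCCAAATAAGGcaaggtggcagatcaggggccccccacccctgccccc
The E-box was found in Trim54 (chr5:31116462-31116611), and neither site was found in Tnnt3 (chr7:142498686-142498835). Both actin genes held a CArG box, at 73 to 64 bp before the start site in Acta1 (chr8:123894776-123894925) and at 47 to 38 bp before it in Actc1 (chr2:114052876-114053025). Neither actin gene had a peak within 2 kb. The letters TATAAA of Acta1 begin 7 bp before the annotated start site, outside the 40 to 20 bp in which a TATA box was counted. The genes shown do not represent the muscle lists. In these lists together, the E-box CAGCTG was counted from 250 bp before to 50 bp after the start site. It was in 7 of 9 start sites with a peak (77.8%, interval 45.3 to 93.7). Without a peak it was in 44 of 94 (46.8%, interval 37.0 to 56.8), and the intervals overlapped.

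CpG-poor start sites seldom had a peak. A peak had its summit nearest to 1050 of the 8881 CpG-poor start sites (11.8%, interval 11.2 to 12.5), and counted by genes the share was 11.9% (944 of 7900). Another 188 CpG-poor start sites (2.12%) had in their window only peaks nearest to a different start site, and 7643 (86.1%) had none. Of the CpG-rich start sites, 61.3% (10518 of 17151) had a peak in the window, and of all start sites 45.2%. The share did not step at the limit of 0.35. It was 3.71% (14 of 377) below a ratio of 0.05, 9.97% (184 of 1845) from 0.15 to 0.20 and 21.8% (227 of 1041) from 0.30 to 0.35. Counting any peak in the window, it was 25.0% just below the limit, from 0.30 to 0.35, and 29.1% (747 of 2568) just above it, from 0.35 to 0.50.

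**Figure D1:**
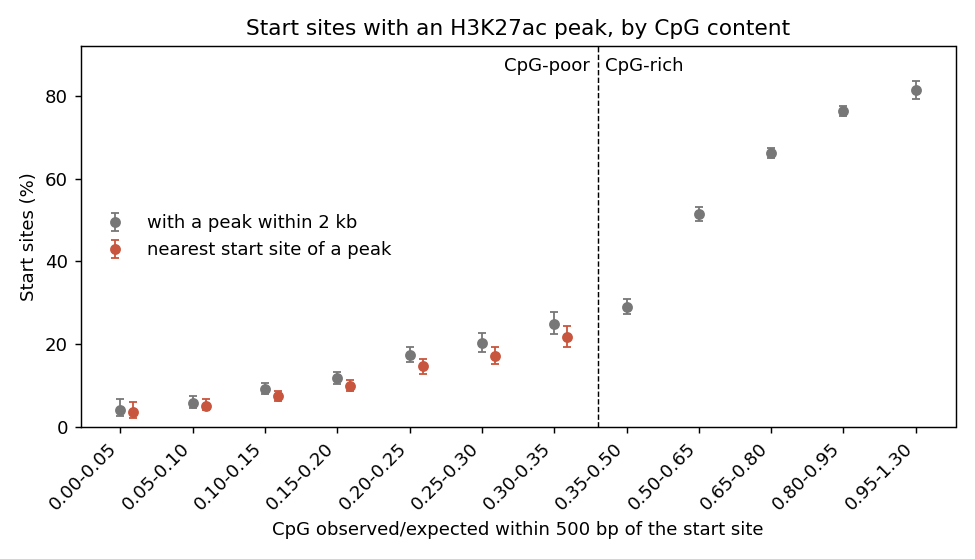
Share of start sites with an H3K27ac peak (vertical axis, percent) in 12 classes of CpG observed/expected ratio (horizontal axis), with 95% Wilson intervals. Grey points count any peak in the 2 kb window and red points, for the CpG-poor classes, only start sites nearest to a summit. The grey points climb from 4.24% in the lowest class to 81.4% in the highest.

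Olfactory and vomeronasal receptor genes account for part of the lowest classes. These large families are used in sensory neurons of the nose, and 3 of their 1430 genes with a CpG-poor start site (0.210%) had a peak there. Without them the share was 14.5% of genes (941 of 6470), and the climb with the ratio remained, from 6.25% of start sites with any peak in the window below 0.05 to 25.6% from 0.30 to 0.35.

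The peaks themselves were about as strong as other peaks of the list. Their median fold enrichment over the IgG background was 5.22 (interval 5.22 to 5.35, quartiles 4.36 and 6.94), against 5.56 (4.45 and 7.11) for the 22234 peaks at CpG-rich start sites and 5.11 (4.36 and 6.13) for the 97477 peaks outside promoters. Median width was 180 bp, against 185 bp at CpG-rich start sites. The caller's columns could be solved for the fragments covering each summit, with a median of 13 (quartiles 11 and 18, range 6 to 63). At CpG-rich start sites the median was 15. The solved background had the same first quartile, 1.05, at CpG-poor start sites, at CpG-rich ones and outside promoters, and a median of 1.09 at CpG-poor ones. With the background so often at this low value, fold largely follows the fragments, and the 2 are not separate support. A count of 13 has a Poisson error of 27.7%, and 80.1% of the peaks rested on fewer than 20 fragments, so differences of fold between single weak peaks are within counting error. A start site had a median of 2 peaks, and 373 start sites had 1. The cells were assayed in bulk, so a mark in few cells and a weaker mark in many cannot be told apart.

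Summits were more often next to the start site at CpG-poor than at CpG-rich start sites, but not closer throughout. The summit was within 500 bp of the start site in 40.9% of the peaks (1090 of 2664, interval 39.1 to 42.8), against 34.9% (34.2 to 35.5) at CpG-rich start sites, and within 100 bp in 7.09% (189) against 2.78% (618 of 22234). Within 1000 bp the order was the other way, 65.2% (63.4 to 67.0) against 70.1% (69.5 to 70.7), and the median distances were 654.5 and 677 bp. In the 100 bp just before the start site were 2.89% of the summits at CpG-poor and 0.873% at CpG-rich start sites, so the gap there was shallower at CpG-poor start sites. Peaks at CpG-rich start sites were most frequent 500 to 600 bp into the gene (6.45%), with 5.03% at 100 to 200 bp. At CpG-poor start sites 5.63% lay 100 to 200 bp into the gene. A similar 5.48% lay 300 to 200 bp before the start site, a difference within counting error. Summits upstream of the start site were 45.2% (43.4 to 47.1) against 34.1%. The 2664 peaks fall at 1049 start positions and are not independent, so these intervals may be too narrow. Most summits were in introns of coding transcripts (1686, 63.3%), with 645 (24.2%) between genes, 241 (9.05%) in untranslated and 92 (3.45%) in coding parts of exons.

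**Figure D2:**
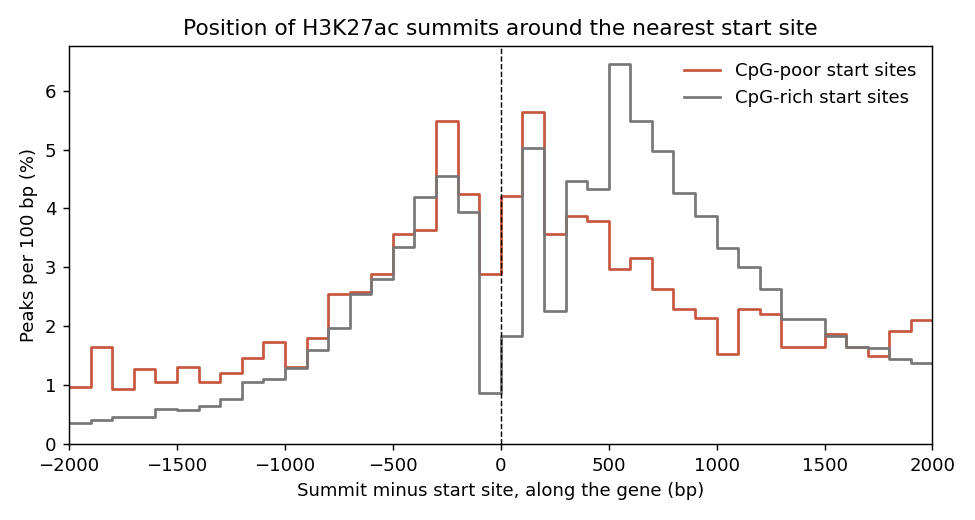
Position of H3K27ac summits relative to the nearest start site (horizontal axis, bp along the gene) as the share of peaks in each bin of 100 bp (vertical axis, percent). The red line, 2664 peaks at CpG-poor start sites, has a shallower gap before the start site than the grey line, 22234 peaks at CpG-rich start sites. It also lacks the maximum at 500 to 600 bp. Shares are of all these peaks, of which 2564 and 21734 have the summit within the 2 kb drawn.

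Some of these peaks had a CpG-rich start site nearby. A CpG-rich start site lay within 5 kb of the summit in 438 peaks (16.4%, interval 15.1 to 17.9), and for 335 of them it was a start site of the same gene. Of the genes with CpG-poor and CpG-rich start sites, 27.4% (339 of 1236) had a peak nearest to a CpG-poor one, against 9.08% (605 of 6664) of the genes whose start sites were all CpG-poor. Summits were within 500 bp of the start site in 47.5% of the peaks beside a CpG-rich start site and in 39.6% (882 of 2226) of the others. The 782 genes of the others are those for which no CpG-rich promoter is close, and all 38 interferon response genes described next were among them.

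Interferon response genes carried peaks at most of their CpG-poor start sites. Of the 50 genes of that list with a CpG-poor start site, 38 (76.0%, interval 62.6 to 85.7) had a peak there, against the 11.9% of all genes. The list also has 28 genes with a CpG-rich start site, of which 23 (82.1%) had a peak there, against 61.8% (8861 of 14336) of all genes. The strongest peak of each of the 38 genes had a median fold enrichment of 7.37 (quartiles 5.22 and 9.52), beside 6.51 over all genes with a peak, and a median of 16 fragments at the summit (range 9 to 43). It was within 500 bp of the start site in 24 of the 38 genes (63.2%, interval 47.3 to 76.6), against 47.2% of all genes with a peak, and 23 genes (60.5%) had at least 3 peaks, against 43.9%. On chromosomes other than 1, 6, 11 and 15 the share was 71.9% (23 of 32), beside 10.5% (653 of 6213) of all genes. With only peaks of −log10 q of 5 or more the share was 54.0%, beside 8.34% of all CpG-poor start sites.

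The regulators of the response were among them. Irf9, a DNA-binding transcription factor of the type I interferon response, had a fold enrichment of 12.97 from 29 fragments, with the summit 61 bp before the start site. Irf7, which amplifies the production of type I interferon, reached 9.53 from 21 fragments at 244 bp into the gene. The sensors of foreign nucleic acid Dhx58 and Zbp1 were at 9.53 and 7.37, with summits 126 and 132 bp into the gene. All 4 start sites therefore had a summit within 250 bp, and each of these genes had 3 or 4 peaks.

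Effectors that act on viral RNA, entry or assembly spanned the range. Ifitm3, which blocks fusion of enveloped viruses, had a fold enrichment of 12.7 from 29 fragments, 211 bp before its start site. Oasl2, of the oligoadenylate synthetase family, reached 11.8 from 39 fragments, while Oas3 and Oas1g of the same family had weak peaks of 4.79 and 5.22. Isg15, a ubiquitin-like modifier, had 6 peaks of which the strongest was at 6.94. Rtp4 and Samd9l were at 10.4 and 10.7. Ifit1 was at 5.22 from 11 fragments, and Isg20, an exonuclease, at 4.71 from 10. The weak peaks rest on so few fragments that their order is not resolved.

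Interferon-inducible GTPases, which attack the vacuoles of intracellular pathogens, formed the largest family. Of the guanylate-binding proteins, Gbp6 was at 9.10, Gbp2 at 7.81, Gbp9 at 7.67, Gbp3 at 5.35, Gbp5 at 4.36 and Gbp4 at 3.58. Gbp2 had the widest support of them, 43 fragments over a peak of 1570 bp at chr3:142620188-142621757, while Gbp4 and Gbp5 rested on 11 and 9. Of the immunity-related GTPases, Tgtp1 was at 13.1 from 38 fragments, Igtp at 8.67, Irgm2 at 8.24 and Iigp1 at 6.51. Ifi47 belongs to the same family but was not in the list, and its peak led all peaks at CpG-poor start sites without a CpG-rich neighbour. Several genes of these families are near-copies of each other, so fragments could have been assigned to the wrong copy or lost, and this was not tested.

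The 12 genes of the list without a peak were Gbp10, Ifi27l2a, Ifit1bl1, Ifit3, Ifitm1, Nlrc5, Oas1a, Oas2, Rsad2, Slfn8, Sp100 and Sp110. None had any peak within 2 kb of a CpG-poor start site. Peak numbers skip at Sp100 and Sp110, so whether a peak was called there is not known here. Ifit3 and Ifit3b, Ifitm1 and Ifitm3, and Oas1a and Oas1g are neighbours in which the first lacked a peak and the second had one.

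**Figure D3:**
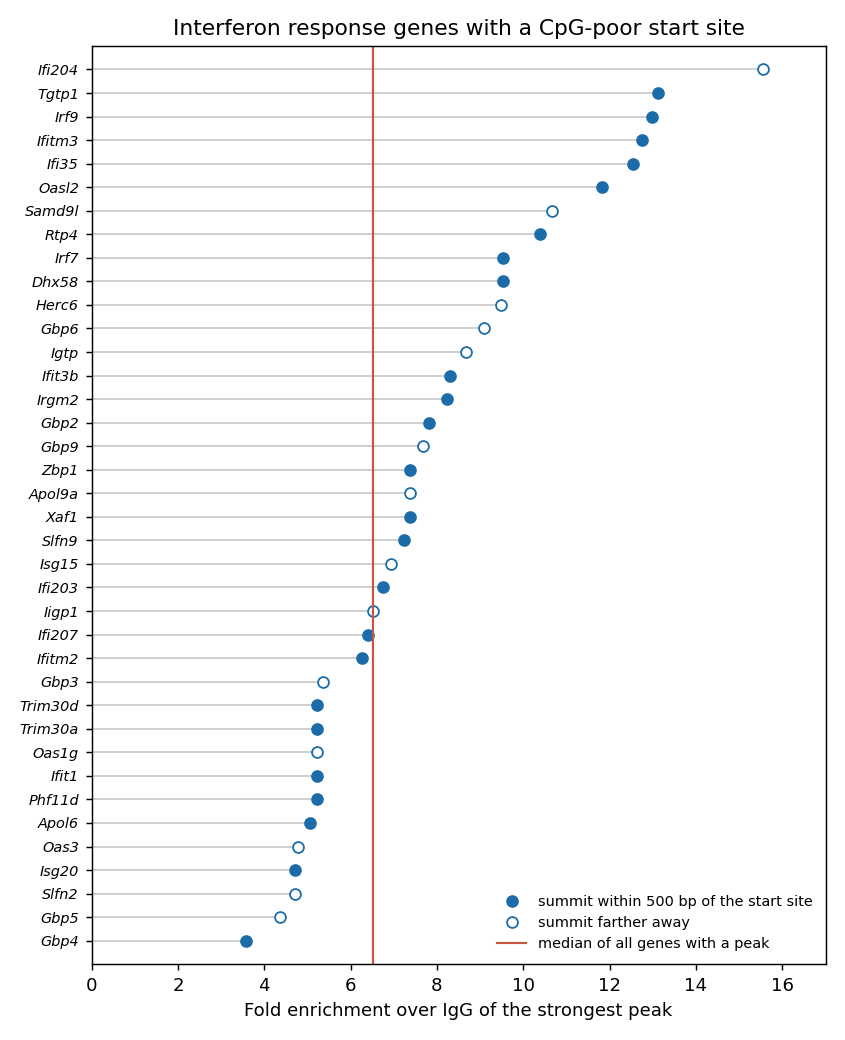
Fold enrichment over IgG (horizontal axis, ratio) of the strongest peak at a CpG-poor start site for the 38 interferon response genes that had one (vertical axis). Filled points have the summit within 500 bp of the start site, and the red line is the median of all genes with a peak, 6.51. The points span 3.58 for Gbp4 to 15.6 for Ifi204, and 24 of them are filled.

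Some of these genes are neighbours. Stretches were defined as chains of at least 5 genes with a peak whose start sites are at most 100 kb apart. Their ends are thus genes with a peak, and 5 stretches were found. High counts within them follow from this definition, beside the 11.9% of all genes with a CpG-poor start site. Whether there are more such stretches than scattered peaks would give was not tested. On chr1:173879958-174050375, all 7 genes with a CpG-poor start site had a peak, namely Mndal, Ifi211, Ifi203, Ifi202b and Ifi205 of the interferon-inducible p200 family, which bind DNA, and the olfactory receptors Olfr433 and Olfr432. These receptors were the only 2 of 1080 olfactory receptor genes with a peak, at 6.89 and 4.99. Outside that stretch, Ifi204, the p200 gene with the highest fold of the list, reached 15.6 from 35 fragments, while Ifi209, Ifi213 and Ifi214 of the same family had no peak. On chr11:48927182-49087017, 5 of 7 such genes had a peak, among them Tgtp1, Tgtp2 and Ifi47. On chr11:58093129-58214977 all 5 did, Igtp and Irgm2 included. The other stretches were a set of S100 genes on chr3:90526849-90608522, where all 6 genes had a peak, S100a3 at 13.1, S100a16 at 11.7 and S100a4 at 11.2, and a set of 5 of 7 genes with Zfp120 and Zfp442 on chr2:150136678-150451501. S100 proteins bind calcium, and S100a4 is also one of the study's mesenchymal genes.

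Matrix and mesenchymal genes had the next highest shares at CpG-poor start sites. At CpG-rich start sites the matrix and fibroblast list had a peak at 14 of 41 genes (34.1%), below the 61.8% of all such genes. Of 34 genes of the matrix and fibroblast list with a CpG-poor start site, 11 (32.4%, interval 19.1 to 49.2) had a peak, with a median fold of 9.09. Without chromosomes 1, 6, 11 and 15 it was 5 of 22 (22.7%, interval 10.1 to 43.4), which includes the 10.5% of all genes there. Col3a1, the chain of type III collagen, had a peak of 2200 bp at chr1:45310488-45312687 with a fold of 13.4 from 40 fragments, its summit 493 bp before the start site. Pcolce, which enhances the processing of procollagen, was also at 13.4 but 2232 bp before the start site. Col5a2, a chain of type V collagen, was at 11.5 and the proteoglycan Omd at 10.8. Sparc, a collagen-binding glycoprotein, was at 9.09 and Postn, a matrix protein of remodelling tissue, at 6.08, while Col6a1 and Col6a3 had weak peaks of 5.22 and 3.89. The 23 genes without a peak included Col1a1, Dcn, Lum and Dpt.

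The mesenchymal state of rhabdomyosarcoma cells, a list used by the study, had peaks at 21 of 39 CpG-poor genes (53.8%, interval 38.6 to 68.4). Its leading genes were Pcolce, Col3a1, Col5a2 and Eps8, which regulates actin, the last at 11.4. Cd44, the hyaluronan receptor, and S100a4 were both at 11.2 from 25 fragments. The interferon state used by the study had peaks at 14 of 21 genes (66.7%, interval 45.4 to 82.8), led by Ifitm3, Samd9l, Irf7 and Herc6, and 4 of its 9 genes outside the interferon response list had one. The muscle state used by the study had peaks at 4 of 32 (12.5%, interval 4.97 to 28.1), Tnnt3, Stac3, Ak1 and Dclk1. The study took these states as mouse counterparts of genes described in human rhabdomyosarcoma, and the lists were not drawn from this library. Without chromosomes 1, 6, 11 and 15 the mesenchymal share was 48.0% (12 of 25, interval 30.03 to 66.5). At CpG-rich start sites the mesenchymal state had a peak at 42 of 90 genes (46.7%) and the muscle state at 17 of 45 (37.8%). Both were below the 61.8% of all such genes, and the interferon state was above it with 14 of 18 (77.8%).

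**Figure D4:**
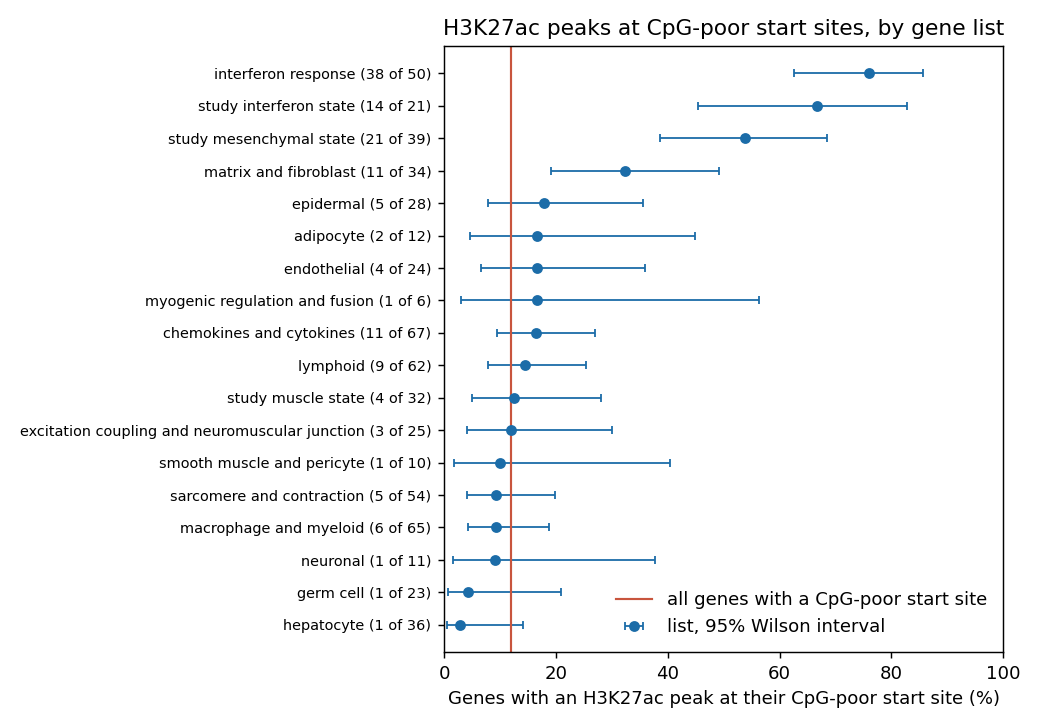
Share of the genes with a CpG-poor start site that had an H3K27ac peak there (horizontal axis, percent) in 18 gene lists (vertical axis, with genes with a peak of genes with a CpG-poor start site), with 95% Wilson intervals. The red line is the 11.9% of all genes. The intervals of the interferon lists, the mesenchymal state and the matrix list lie above the line, and the intervals of the others, the muscle lists included, span it.

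Muscle genes with a CpG-poor start site had a peak about as often as all genes with one. The 3 muscle lists together had a peak at 9 of 85 genes (10.6%, interval 5.67 to 18.9), beside the 11.9% of all genes. In the sarcomere and contraction list it was 5 of 54 (9.26%), in that of excitation coupling and the neuromuscular junction 3 of 25 and in that of myogenic regulation and fusion 1 of 6 (16.7%). The last list is mostly CpG-rich, and 13 of its 34 genes with a CpG-rich start site (38.2%) had a peak there. For the 69 genes of the 3 lists with a CpG-rich start site the share was 31.9%, below the 61.8% of all such genes.

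The 9 muscle genes had weak to middling peaks, with a median fold of 5.65 and 9 to 19 fragments at the summit, and none had more than 2 peaks. Eno3, the muscle enolase of glycolysis, was highest at 7.95 from 19 fragments, 712 bp before the start site, but a CpG-rich start site lay within 5 kb. Cacng1, a subunit of the skeletal calcium channel, was at 6.89, and Stac3, which couples that channel to contraction, at 5.65. Tnnt3, the fast skeletal troponin T, and Trim54, a ubiquitin ligase of the sarcomere, were both at 6.51 from 14 fragments. Musk, the receptor kinase of the neuromuscular junction, was at 5.05, the stretch-responsive Ankrd1 at 4.88, the myosin light chain kinase Mylk at 4.79 and the glycolytic Pgam2 at 4.36. The summit was within 500 bp of the start site in 3 of the 9.

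No peak was found at the start sites of most structural genes of the sarcomere. In alphabetical order these begin with Acta1, Actc1, Ankrd2, the muscle creatine kinases Ckm and Ckmt2, Csrp3, Hspb7 and Ldb3. Genes of excitation without a peak included the calcium pump Atp2a1, the channel Cacna1s, the calcium store protein Casq1, Cav3 and the acetylcholine receptor subunits Chrna1, Chrnd, Chrne and Chrng. Among regulators of differentiation and fusion, Cdh15, Mef2c, Mymk, Mymx and Srpk3 had none. Peaks were nonetheless present around many of these genes. The 94 start sites of muscle genes without a peak had a median of 7.5 peaks (quartiles 1 and 13.8) 3 to 50 kb away, whereas the 7643 CpG-poor start sites without a peak had a median of 0 (quartiles 0 and 5).

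Markers of other cells had peaks about as often as all CpG-poor genes. Of 127 leukocyte genes, 15 (11.8%, interval 7.29 to 18.6) had a peak. Among the 62 lymphoid genes there were 9, led by Arhgdib at 15.9, the checkpoint receptor Tigit at 12.4, Cd27 at 8.12 and the kinase Lck at 7.80. Among the 65 macrophage and myeloid genes there were 6, which were Tlr4, the receptor of bacterial lipopolysaccharide, at 17.4, the Fc receptor Fcgr4 at 9.82, Cd53 at 6.51, Cd68 at 5.91, Fcer1g at 4.57 and Clec12a at 3.58. Defining markers such as Adgre1, Aif1, C1qa, C1qb, C1qc and Ccr2 of macrophages, Cd22 and Btk of B cells and Cd2 and Cd247 of T cells had none. Peak numbers skip at 4 of the leukocyte genes counted without a peak. The part of other cells in these peaks was not tested.

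Of 24 endothelial genes 4 (16.7%) had a peak, Fabp4 at 9.96, Icam2 at 7.80, Ecscr at 4.79 and Mmrn2 at 3.93, and Cdh5, Emcn, Erg and Egfl7 had none. Of 28 epidermal genes 5 had one, Tgm1, a transglutaminase of the skin barrier, at 11.05, Sprr1a at 8.24, Lgals7 at 6.08 and Cdsn and Krt17 at 5.65. Chemokines and cytokines had 11 of 67 (16.4%), led by Il24 at 12.6, Il1rn at 9.49 and Il18 and Tnfsf10 at 6.94. Adipocyte genes had 2 of 12, Fabp4 and Lipe. Liver, neuronal, germ cell and smooth muscle lists had 1 each, C9 of 36, Camk2a of 11, Tnp2 of 23 and Mylk of 10, with fold enrichments of 4.71 to 5.92. Each of these shares has an interval that includes 11.9%.

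Gene families named by symbol are set beside the 11.9% of all genes with a CpG-poor start site, or 14.5% without olfactory and vomeronasal receptors. Serpins, protease inhibitors, had a peak at 14 of 58 genes (24.1%, interval 14.96 to 36.5), of which 10 were Serpinb genes. Serpinb10, Serpinb8 and Serpinb2 on chromosome 1 were at 21.7, 13.8 and 10.1, and Serpinb9 and Serpinb6b on chromosome 13 at 13.8 and 11.2. Of the 69 Zfp zinc finger genes 18 (26.1%) had a peak. No peak was found at 38 taste receptors, 26 kallikreins and 22 major urinary protein genes, which allows shares of up to 7.89%, 11.5% and 13.6%. Cytochrome P450 genes had 5 of 84 (5.95%), keratin-associated proteins 2 of 52 and defensins 1 of 69. The Ly6 surface proteins had 4 of 19, all on chromosome 15, with Ly6e at 8.29, Ly6c1 at 8.24, Ly6a at 7.80 and Ly6g at 5.55. GTPases with symbols that begin with Gbp, Irg or Gimap had 8 of 19 (42.1%, interval 23.1 to 63.7), a count that leaves out Tgtp1, Igtp, Iigp1 and Ifi47, whose symbols differ. Solute carriers had 21 of 142 (14.8%) and organic anion transporters 2 of 8, C-type lectins 5 of 30, natural killer lectin-like receptors 3 of 25, CD antigens 7 of 70, the membrane-spanning 4A family 2 of 21, ADAM proteases 2 of 19, keratins 2 of 30 and UDP-glucuronosyltransferases 1 of 19. Each of the shares from solute carriers to UDP-glucuronosyltransferases has an interval that includes 11.9%. So do those of the Ly6, cytochrome P450 and keratin-associated protein genes. Predicted genes named Gm or Rik had 37 of 714 (5.18%, interval 3.78 to 7.06). In families of near-copies few reads map to 1 place, and the effect on these counts was not tested.

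The 20 genes with the highest fold enrichment, among peaks without a CpG-rich start site within 5 kb, were led by Ifi47, Mr1, Ido2, Serpinb10, Clec2d and Rab7b. Ifi47 reached 22.9 from 57 fragments (exact Poisson interval 43.2 to 73.9) in a peak of 2543 bp at chr11:49075256-49077798 and had 9 peaks. Mr1, which presents microbial metabolites to T cells, was at 22.5 from 58 fragments (44.0 to 74.98), 114 bp into the gene. Ido2, an enzyme of tryptophan breakdown, was at 22.01 from 50 fragments (37.1 to 65.9). These 3 intervals overlap, so their order is not resolved. Serpinb10 was at 21.7, Clec2d, a ligand of a natural killer cell receptor, at 21.1 and Rab7b, a GTPase of endosomes, at 20.3.

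The remaining 14 ran from 17.4 to 13.8. Tlr4 was at 17.4, Prkacb, a catalytic subunit of protein kinase A, and Vwa5a at 17.3, Arhgdib at 15.9 and Akna, an AT-hook transcription factor, at 15.8. Mepe, a phosphoglycoprotein of bone matrix, was at 15.7, though its summit was 2127 bp into the gene. Ifi204, Fam71f1, Sertad4, the trypsinogen Prss2, the zinc finger repressor Zbtb20, Sec16b, Tspan14 and Serpinb9, an inhibitor of granzyme B, were between 15.6 and 13.8. Of the 20 genes, Prkacb, Sertad4 and Tspan14 also have a CpG-rich start site elsewhere. No gene of the muscle lists was among them. These lists held only 8 of the 782 genes from which the 20 were taken, so their absence says little.

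Only Ifi47 among the 20 had a TATA box core 40 to 20 bp before the start site. It lies at 25 to 20 bp before it and is marked in capitals in the upstream stretch (chr11:49076437-49076586).
Ifi47: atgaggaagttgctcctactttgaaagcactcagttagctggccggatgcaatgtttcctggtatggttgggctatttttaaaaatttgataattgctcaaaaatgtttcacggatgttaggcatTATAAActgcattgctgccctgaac
The core (TATAAA on the gene strand) was less frequent at CpG-poor start sites with a peak, 2.95% (31 of 1050, interval 2.09 to 4.16), than at those without, 5.44% (416 of 7643, interval 4.96 to 5.97). It was at 0.770% of the CpG-rich start sites with a peak and 2.45% of all start sites. With start sites of a ratio of 0.20 to 0.35 only, the shares were 3.02% and 3.90% and their intervals overlapped, so the difference was smaller once CpG content was closer.

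Other short motifs were counted on both strands from 250 bp before to 50 bp after the start site. The interferon-stimulated element GAAANNGAA was in 14.7% (interval 12.7 to 16.9) of the CpG-poor start sites with a peak, 10.7% of those without and 8.16% of all start sites. From a ratio of 0.20 to 0.35 it was in 11.9% and 9.28%, where the intervals overlapped. In the interferon response list it was in 28 of 41 start sites with a peak (68.3%, interval 53.0 to 80.4) and in 9 of 19 without (47.4%, 27.3 to 68.3). Outside that list it was in 12.5% (10.6 to 14.7) with and 10.7% (9.98 to 11.4) without a peak, where the intervals overlapped. Among other genes that held it 13.2% (126 of 956) had a peak, against 11.2% of those that did not.

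The AP-1 site TGANTCA was in 15.6% of start sites with a peak (interval 13.5 to 17.9), 11.4% without and 6.85% of all. From a ratio of 0.20 to 0.35 it was in 13.9% and 8.99%. The E-box CAGCTG was in 24.0% with a peak, 17.6% without and 15.8% of all, but in 21.3% and 19.8% from 0.20 to 0.35, where the intervals overlapped. The ETS core GGAAGT was in 28.9%, 22.6% and 24.3% of all, and in 30.3% and 22.2% from 0.20 to 0.35. The GC box GGGCGG itself holds a CpG, so its share is tied to the ratio that divides the start sites. It was in 20.0% with a peak, 9.98% without and 47.5% of all, against 69.9% of the CpG-rich start sites with a peak. From 0.20 to 0.35 it was in 24.0% and 15.8%. Start sites with a peak were also richer in G and C (median 49.7%, against 46.0%) and had a higher ratio (0.233 against 0.174), and the part of base composition in these shares was not tested beyond the class of 0.20 to 0.35. A MEF2 site, read by muscle regulators, was in 1.71% with a peak, 3.14% without and 1.64% of all, and from 0.20 to 0.35 in 1.81% and 3.07%, where the intervals overlapped.

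For further motifs the intervals with and without a peak overlapped, if not over all CpG-poor start sites then from 0.20 to 0.35. Overlap does not show that the shares are equal. TATAAA anywhere in the window was in 15.1% with a peak, 23.6% without and 12.1% of all, and the homeodomain pair TAATNNATT in 1.90%, 4.28% and 2.06%. From 0.20 to 0.35 the shares with and without a peak were 13.7% and 17.5% for TATAAA and 1.81% and 2.74% for the pair. Both pairs of intervals overlapped, that of TATAAA only narrowly (11.3 to 16.6 and 16.2 to 18.9). The intervals with and without a peak overlapped for the other 7 motifs. In the same order, these were the CCAAT box (36.8%, 39.1% and 37.6%), the RUNX site TGTGGT (22.5%, 21.1% and 14.5%) and the E-box CAGGTG (20.5%, 22.3% and 19.8%). The TEAD site GGAATG was in 17.9%, 16.8% and 13.1%, and the STAT site TTCNNNGAA in 9.81%, 10.5% and 7.67%. The forkhead site TGTTTAC was in 4.67%, 4.36% and 2.90%, and the CArG box in 1.52%, 1.79% and 1.45%. A STAT site can share bases with an interferon-stimulated element, and the motifs were counted separately.

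Peaks around a CpG-poor start site went with a peak at it. A start site with a peak had a median of 11 other summits 3 to 50 kb away (quartiles 5 and 21), one without a peak had 0. Where there was no summit in those surroundings, 1.69% of the start sites (68 of 4033) had a peak of their own. With 1 to 5 summits the share was 10.5%, with 11 to 20 it was 26.4% and with 41 or more 73.8% (59 of 80, interval 63.2 to 82.1). Interferon response start sites with a peak had a median of 8 such summits and those without a median of 5, both below the 11 of all CpG-poor start sites with a peak. The nearest CpG-rich start site was a median of 27.2 kb away from CpG-poor start sites with a peak and 67.0 kb from those without. CpG-rich start sites themselves had a median of 8 other summits with a peak (quartiles 4 and 15) and 2 without (0 and 7). More summits around start sites with a peak were thus not particular to CpG-poor ones.

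**Figure D5:**
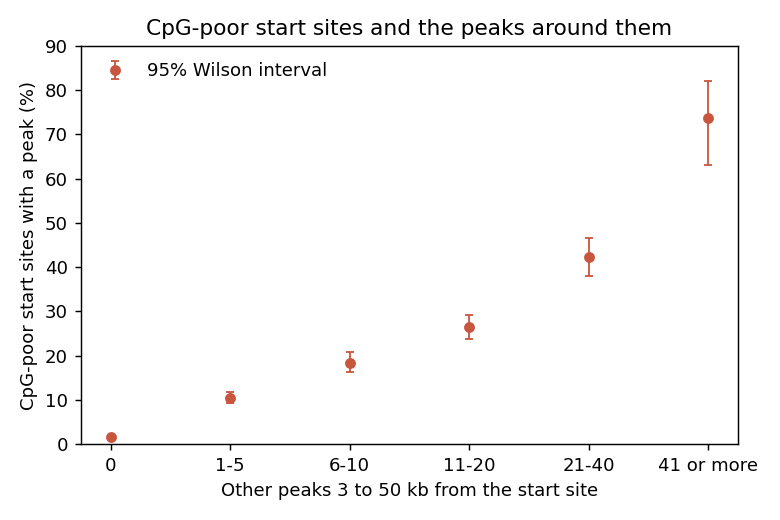
Share of CpG-poor start sites with a peak of their own (vertical axis, percent, 95% Wilson intervals) by the number of other H3K27ac summits 3 to 50 kb away (horizontal axis). The share climbs from 1.69% with none to 73.8% with 41 or more.

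By chromosome, the share of CpG-poor start sites with a peak was 6.21% on X (28 of 451) and 0 of 59 on Y, and among the autosomes it ran from 8.08% on chromosome 7 (92 of 1139) to 20.5% on chromosome 18 (30 of 146). Without the olfactory and vomeronasal receptors, chromosome 7 was at 12.6% and the lowest autosome was chromosome 16 at 9.69%. On chromosomes 1, 6, 11 and 15, which were left out in an alternative, the share was 15.7 to 18.5%, and chromosome 3, which was kept, was as high at 17.7% (70 of 395).

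The start sites nearest to the limit of 0.35 show where the rule divides. Just inside it were Ifitm3 (0.34998), Limk2 (0.34954) and Dzip1 (0.34936). The 3 peaks just inside all belonged to Ifitm3, the strongest at 12.7. The 3 peaks just outside were at Fmo5 (0.35130), S100a1 (0.35138) and Tppp3 (0.35161), with fold enrichments of 4.36, 7.39 and 5.17.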

How the data were processed

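CUT&RUN libraries were deposited for MCP and TCP tumors, and the peaks of MCP H3K27ac replicate 5 were analyzed. Per the labels the authors used BWA, SAMtools and MACS2 with mm10 and dm6, whereas the methods name bowtie, an earlier MACS and a p threshold. The list deposited by the authors gives for each peak a ratio (fold enrichment of the summit over the local IgG background), −log10 p and −log10 q, the largest q being 0.0471. Peak numbers run to 122959 and 584 are absent, so 374 start sites counted without a peak are uncertain. Coordinates fit the GRCm38 chromosome lengths.

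Start sites were those of curated RefSeq protein-coding transcripts (26032 of 21000 genes). A peak overlapping a window by 1 bp went to the start site nearest its summit. Intervals are 95% Wilson intervals, order-statistic intervals for medians and exact Poisson intervals for fragments. They cover counting error only, since PCR copies cannot be told from molecules. Intervals of shares and medians of peaks treat peaks of 1 start site as independent. A share of 0 allows 3 counts of the total. The depth is not stated. Fragments were solved from fold and −log10 p with 1 scale of 0.885 between the libraries. All but 1 peak gave a whole number within 0.01. With the scale 3% off, 3.53% of a sample of the peaks did. A single number was found for 96.3% of the peaks, in a search that stopped at a near-exact match. Code was tested on simulated data (Python 3.11.15, scipy 1.17.1, pysam 0.24.0).

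The peaks, 18 gene lists, 22 families and 15 motifs were chosen with earlier results of these data known. Named by rule were the 20 leading genes, the genes with a peak of each list (the 4 highest where there were more than 6), up to 8 muscle, endothelial and leukocyte genes per list without one, and the peaks beside the limit. The upstream sequences of 2 of the 4 leading muscle genes are not reported here. Other names, among them most interferon response genes, family members and chains, were chosen after their values were seen. Alternatives were −log10 q of 5 or more, the strongest 25% of peaks, a window of 1 kb, the summit inside the window, ratios of 0.30 and 0.40, other start sites, and only start sites without a CpG-rich one within 5 kb.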

Additional observations from a re-analysis of the deposited data

How the results depend on the processing

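No paired analysis was possible because the peaks of only 1 library were used here, and for the same reason no library was left out. The number of peaks at CpG-poor start sites (2664) was 1424 with −log10 q of at least 5, 840 with the strongest 25% and 5249 with predicted transcripts added, and stayed within 1.5 times under the other settings. The share of CpG-poor start sites with a peak (11.8%) was 8.34% with −log10 q of at least 5, 6.07% with the strongest 25%, 10.1% with the 1 kb window, 10.5% below a ratio of 0.30, 12.9% below 0.40, 9.51% with GENCODE start sites, 10.4% without chromosomes 1, 6, 11 and 15, and 14.1% without olfactory and vomeronasal receptors. The median fold (5.22) was 6.59, 7.80 and 5.42 under the first 3 of these settings. The share of summits within 500 bp (40.9%) was then 43.0%, 45.1% and 58.2%, the last because the window itself was smaller. The share beside a CpG-rich start site (16.4%) was 14.5% with the strongest 25%, 14.8% below 0.40 and 21.5% with GENCODE. The interferon share (76.0%) was 54.0% with −log10 q of at least 5 and 48.0% with the strongest 25%, and 69.8% to 76.0% otherwise. The leukocyte share was 7.09% with the 1 kb window. The muscle share stayed at 7.06 to 10.9%. The TATA share without a peak (5.44%) was 3.64% with GENCODE, 6.49% without receptors and 3.90% from 0.20 to 0.35, and it was above the share with a peak under each setting. The settings without chromosomes or receptors, with predicted transcripts, from 0.20 to 0.35 and all for the interferon list were chosen after seeing the data. The cause of these moves was not tested. Depth limits single peaks, whose median is 13 fragments, so a start site without a peak is not shown to lack the mark.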
